A study of Mus musculus with 2 samples.

Results

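The transcripts of 10 genes for glycolytic enzymes, Hk1, Gpi1, Pfkp, Aldoa, Aldoc, Pgk1, Eno1, Eno2, Pkm and Ldha, were followed in dorsal root ganglion (DRG) neuron preparations. They were selected by symbol alone, and all 10 were found, as 10 of 24411 gene symbols and 19 of 35034 RefSeq transcripts. Male C57BL/6J mice (strain labelled C57BL/6), 6 to 8 weeks old, were injected intraperitoneally on days 0 and 14 with 200 µl of saline containing 50% alum, an adjuvant. The injection held either no antigen or 100 µg of keyhole limpet hemocyanin (KLH), a foreign mollusc protein, and thoracic and lumbar DRGs were taken on day 28. The ganglia of both groups were digested and enriched for neurons on a protein cushion, and B lymphocytes were removed with magnetic beads. Each group was sequenced as 1 mRNA library from a pool of 10 mice, so that every value below is 1 measurement per group with no replicates. The control library carries a title that calls it naïve as well as alum alone, and it is treated here as alum-injected. The libraries are called the alum pool and the KLH pool below.

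Glycolysis splits glucose into pyruvate in the cytosol and yields ATP without oxygen, and lactate dehydrogenase converts pyruvate to lactate and back. Most steps are served by several isozymes, encoded by different genes or by alternative exons of the same gene, which differ in tissue distribution and regulation. Neurons are known for gamma-enolase, the product of Eno2, and for the M1 form of pyruvate kinase, whereas alpha-enolase (Eno1) and the M2 form of pyruvate kinase are typical of many other and of proliferating cells.

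Expression is given in TPM, a length-corrected share of all transcripts that sums to 1000000 in each library, so that levels of different genes can be compared. TPM was summed over the RefSeq transcripts of a gene. All 10 genes were well above the 3 TPM that the study took as detectable, in both pools. Phosphoglycerate kinase, Pgk1, was the highest at 559 TPM in the alum pool and 533 TPM in the KLH pool, ranks 293 and 312 among all genes. Aldolase C, Aldoc, was the lowest at 41.3 and 38.7 TPM, ranks 4269 and 4426. Together the 10 genes made up 1977 and 1858 TPM. The genes kept the same order in the pools, from Pgk1 through Ldha, Eno2, Aldoa, Pfkp, Pkm, Gpi1, Hk1 and Eno1 to Aldoc, except that Ldha stood above Eno2 in the alum pool and below it in the KLH pool. Between the pools, the distance from one gene to the next in this order shifted by at most 0.28 on the log2 scale. The gaps in the alum pool of 0.066 between Ldha and Eno2, 0.054 between Eno2 and Aldoa and 0.097 between Pfkp and Pkm were smaller than this shift.

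**Figure D1:**
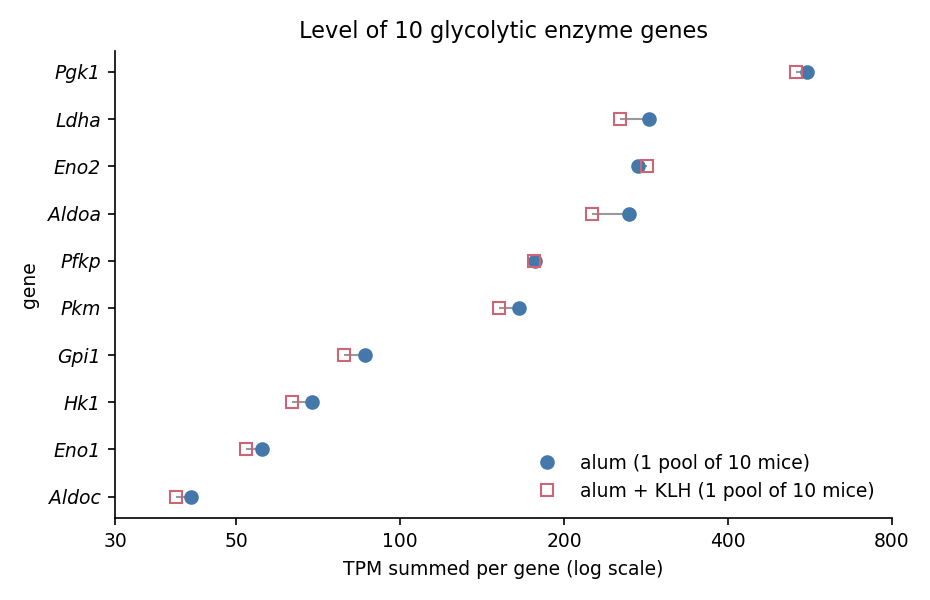
TPM summed per gene (horizontal log axis) for each of the 10 genes, as filled circles for the alum pool and open squares for the KLH pool, with 1 library each and no error bars. The square lies left of the circle for 9 genes and right of it for Eno2, and no pair is further apart than that of Aldoa, at 263 and 226 TPM.

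Differences between the pools were written as log2 ratios with 1 TPM added to each value, alum + KLH over alum, so that negative values mean a lower level after KLH. The ratio of 9 of the 10 genes was below 0, which held for 56.4% of the 11648 genes above 3 TPM in either pool. The median ratio was -0.11 over the 10 genes and -0.020 over all of these genes. A difference of at least 25% of the lower level, on the same TPM + 1 scale, was seen in 0 of the 10 genes, while 5.39% of all genes were at least that much lower and 2.29% at least that much higher. The most negative ratio was that of Aldoa, at -0.22, and the single positive one that of Eno2, at 0.056. Each ratio was also set beside the SD of the ratios of the 500 genes closest in level, which describes how far similar genes differ between the same 2 libraries and is not an error between mice. Only Aldoa exceeded this SD, which was 0.18 for it and between 0.11 and 0.19 for the other genes. With no replicates no test was possible, and in pooled tissue fewer cells of a type cannot be told apart from less RNA per cell.

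The ratio between the libraries changed with the GC content of the transcripts, and the glycolytic genes are rich in GC. Over all genes above 3 TPM, the median log2 ratio went from 0.052 in the fifth of genes with the lowest GC content to -0.15 in the fifth with the highest, and the share of genes below 0 went from 29.9% to 83.7%. Of the 10 glycolytic genes, 4 were in the fifth with the highest GC content (54.2% or more), 4 in the next and 2 in the middle one. Measured from the median of the 500 genes closest in GC content, their median ratio was -0.014, with 5 genes below and 5 above 0. On this scale Ldha and Aldoa were at -0.10 each and Eno2 was the highest at 0.15.

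**Figure D2:**
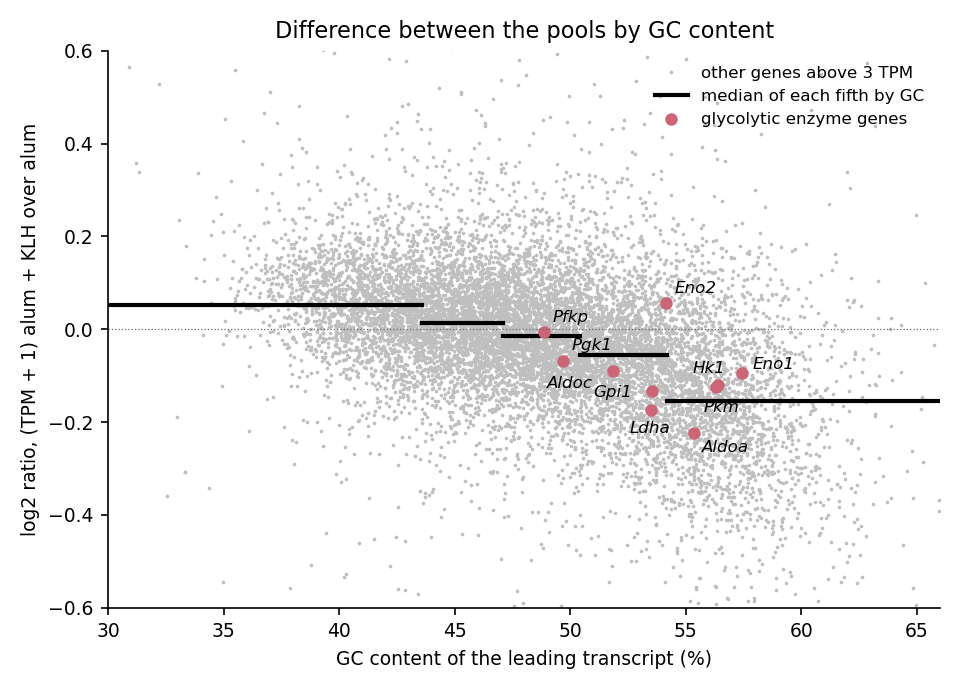
Log2 ratio of alum + KLH over alum (vertical axis, TPM + 1) against the GC content in percent of the leading transcript of each gene (horizontal axis), with the 10 glycolytic genes as labelled red points, other genes above 3 TPM in grey and black bars for the medians of 5 equal groups of genes by GC content. The bars step down from 0.052 to -0.15. Of the glycolytic genes, Eno2 lies furthest above its bar and Ldha furthest below, and Gpi1, Aldoa, Pgk1 and Aldoc also lie below theirs. Genes outside the axes are not drawn.

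The preparations held neuronal and glial RNA in both pools. All 10 pan-neuronal genes of a fixed list, Eno2 among them, were above 3 TPM and summed to 10115 TPM in the alum pool and 10250 TPM in the KLH pool. Schwann cell genes summed to 2171 and 2131 TPM, with 5 of 7 above 3 TPM, and satellite glia genes to 1776 and 1653 TPM, with 6 of 6 above it. Macrophage genes were below 3 TPM in 6 of 6 cases and summed to 6.10 and 5.42 TPM. Erythrocyte genes summed to 9.88 and 2.97 TPM, with 2 of 7 above 3 TPM in the alum pool alone. The globin genes Hba-a2 and Hbb-bs were at or next to 0 in both pools and no other listed marker was at 0 in both. The 6 satellite glia genes were all lower in the KLH pool, down to a log2 ratio of -0.52 for Apoe, the apolipoprotein E gene. The part of these differences in the values of the glycolytic genes was not tested.

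Hexokinase traps glucose in the cell by phosphorylation and opens the pathway. Hk1, the hexokinase of brain and most tissues, was at 68.8 TPM in the alum pool and 63.3 TPM in the KLH pool, a log2 ratio of -0.12. It supplied 95.3% and 94.8% of the TPM of the listed hexokinase genes. Hk2, the isozyme of muscle and fat, was at 3.38 TPM in each pool, and Hk3 and Hkdc1 were below 0.1 TPM. Hk1 lies on the minus strand of chromosome 10. Its transcript NM_001146100 (GRCm38, chr10:62268855-62340542, 18 exons) accounted for 99.7% and 99.5% of the gene, and NM_010438, which begins further upstream at position 62379908 and has 22 exons, stood at 0.18 and 0.33 TPM. Hk1 transcripts thus came almost wholly from the downstream start site in both pools. Adpgk, an ADP-dependent glucokinase, was at 23.1 and 21.9 TPM.

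Gpi1 converts glucose 6-phosphate to fructose 6-phosphate, and its only listed transcript is NM_008155 on chromosome 7. Gpi1 stood at 86.4 TPM in the alum pool and 78.7 TPM in the KLH pool, with a log2 ratio of -0.13.

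Phosphofructokinase commits sugar to glycolysis and is its main control point. Pfkp, the platelet-type gene, which is also abundant in brain, was at 177 TPM in the alum pool and 176 TPM in the KLH pool. Its log2 ratio of -0.0057 was the closest to 0 of the 10 genes. Pfkp made up 70.6% and 72.1% of the TPM of the 3 phosphofructokinase genes, ahead of the muscle-type Pfkm at 69.2 and 64.3 TPM and the liver-type Pfkl at 4.52 and 4.11 TPM. Pfkp had 2 transcripts that carry different versions of exon 16, both 153 bases long and identical at 58.8% of positions. The split was nearly the same in the pools, with NM_019703 at 143 and 142 TPM and NM_001291071 at 34.0 and 34.5 TPM, 19.2% and 19.6% of the gene. The exon pair is shown because it is the coding difference behind this split (GRCm38, minus strand of chromosome 13, chr13:6597859-6598011 and chr13:6593101-6593253), with capitals at the 63 positions where the exons differ.
Pfkp exon 16 of NM_019703: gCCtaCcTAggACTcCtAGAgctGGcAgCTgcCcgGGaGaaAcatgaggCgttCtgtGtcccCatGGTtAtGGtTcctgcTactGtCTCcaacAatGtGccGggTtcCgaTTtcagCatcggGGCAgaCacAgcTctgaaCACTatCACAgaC
Pfkp exon 16 of NM_001291071: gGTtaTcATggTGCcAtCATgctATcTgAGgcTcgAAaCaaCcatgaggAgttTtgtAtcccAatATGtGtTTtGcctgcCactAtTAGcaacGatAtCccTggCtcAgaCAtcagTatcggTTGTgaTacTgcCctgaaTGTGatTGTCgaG
The exon of the major transcript lies upstream of the other in the direction of transcription. NM_019703 also shares 17.4% of its 31-base words with Pitrm1, a neighbouring gene, when both orientations are counted, and NM_001291071 shares none. NM_019703 is the longer transcript, at 4145 against 2679 bases, so most sequence that tells the transcripts apart lies outside the exon pair.

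Aldolase cleaves fructose 1,6-bisphosphate. Aldoa, the isozyme of muscle and most tissues, was at 263 TPM in the alum pool and 226 TPM in the KLH pool, a log2 ratio of -0.22. Aldoc, the isozyme of brain, was at 41.3 and 38.7 TPM, with a ratio of -0.090. Aldoa therefore held 86.3% and 85.2% of aldolase TPM and Aldoc 13.5% and 14.6%. The 3 transcripts of Aldoa begin at different positions. NM_001177308, which begins furthest upstream (GRCm38, chr7:126795235-126800447, minus strand, 9 exons), had 254 and 217 TPM, 96.4% and 96.3% of the gene. NM_007438 had 5.65 and 6.36 TPM. NM_001177307, which has a further exon and a coding sequence of 1254 bases in place of 1092, had 3.86 and 2.07 TPM. The log2 ratio of NM_001177307, -0.66, was the only one past 25% among the 16 transcripts of the 10 genes above 3 TPM, at a level where the ratios of similar transcripts had an SD of 0.77. Of all 14215 transcripts above 3 TPM in either pool, 10.9% were lower by that limit and 6.77% higher, against 1 and 0 of these 16. Aldoc was read almost wholly from NM_001303423, at 40.9 and 38.3 TPM, 99.1% and 99.0% of the gene.

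Pgk1 makes ATP from 1,3-bisphosphoglycerate and lies on the X chromosome (GRCm38, chrX:106187100-106203699, 11 exons). Its single transcript, NM_008828, was at 559 TPM in the alum pool and 533 TPM in the KLH pool, with a log2 ratio of -0.068. The testis gene Pgk2 was at 0 and 0.072 TPM. Of the 31-base words of the Pgk1 transcript, 68.3% occur in other annotated mouse genes, but none of them in a gene that has a row in the files, so that reads from such copies, if any, cannot be told apart from those of Pgk1 here. The same share was 59.6% for the M1 transcript of Pkm, 43.1% for NR_102727 of Ldha and 37.3% for Gpi1, nearly all of it with genes that have no row. For the leading transcript of Aldoa, the gene with the most negative ratio, it was 36.3%, of which 19.9 percentage points were shared with genes that have a row, 14.4 of them with Aldoart1.

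Enolase turns 2-phosphoglycerate into phosphoenolpyruvate. Eno2, the neuronal isozyme, was at 273 TPM in the alum pool and 284 TPM in the KLH pool. Eno1, the ubiquitous isozyme, was at 55.8 and 52.2 TPM with a log2 ratio of -0.094. Eno2 thus supplied 82.3% and 83.8% of the TPM of Eno1, Eno2, Eno3 and Eno4, and the muscle gene Eno3 was at 1.99 and 2.00 TPM. The value of Eno1 depends on how reads were divided between it and Eno1b, a near copy of it. The Eno1 transcript (NM_023119, GRCm38, chr4:150236952-150248879, 12 exons) shares 71.4% of its 1997 31-base words with the Eno1b transcript, which leaves 572 that tell them apart, and the files list Eno1b in 2 rows. The second of these, marked with the suffix _1, was at 134 and 122 TPM, above Eno1 itself, and the first was at 1.36 and 0.58 TPM. The files do not say what the suffix stands for. With both rows added, Eno1 reached 192 and 175 TPM, a log2 ratio of -0.13, and the share of Eno2 was 58.4% and 61.5%. Summed over its transcripts, Eno2 was the higher of the neuronal and ubiquitous enolase on either count. Its full-length transcript, NM_013509, was at 78.7 and 65.0 TPM, above Eno1 alone but below Eno1 with Eno1b added.

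The transcripts of Eno2 had ratios of opposite sign. NM_001302642, which leaves out exons 6 and 7, had 195 TPM in the alum pool and 219 TPM in the KLH pool, a log2 ratio of 0.17. The full-length NM_013509 had 78.7 and 65.0 TPM, a ratio of -0.27. Transcripts of similar level had an SD of 0.22 and 0.20. The share of the shorter transcript was therefore 71.2% in one pool and 77.1% in the other, 5.90 percentage points apart, while the sum differed by 0.056 on the log2 scale. The exons left out are shown because the split rests on them. They are 134 and 223 bases long, together 357 bases, a multiple of 3, and the annotated coding sequence is 945 bases without them and 1302 bases with them (GRCm38, minus strand of chromosome 6, chr6:124766531-124766664 and chr6:124766105-124766327).
Eno2 exon 6 of NM_013509: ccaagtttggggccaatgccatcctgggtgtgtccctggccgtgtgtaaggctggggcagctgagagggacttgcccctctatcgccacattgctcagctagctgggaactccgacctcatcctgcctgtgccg
Eno2 exon 7 of NM_013509: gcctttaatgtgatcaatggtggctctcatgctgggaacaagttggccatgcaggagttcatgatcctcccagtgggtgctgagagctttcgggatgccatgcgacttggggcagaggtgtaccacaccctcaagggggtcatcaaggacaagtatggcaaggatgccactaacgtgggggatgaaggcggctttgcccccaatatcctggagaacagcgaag
The junction that replaces them in NM_001302642 joins exon 5, in lower case, to exon 8, in capitals, each shown with 15 bases.
Eno2 junction of NM_001302642: ggactgagaataaatCCTTGGAGCTGGTGA
Of the 31-base words of NM_001302642, 28 are absent from NM_013509, against 437 words of NM_013509 absent from NM_001302642. The values hold no count of the reads over either set.

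Pyruvate kinase makes pyruvate and ATP from phosphoenolpyruvate. Pkm was at 166 TPM in the alum pool and 152 TPM in the KLH pool, a log2 ratio of -0.13, and Pklr, the gene of liver and red cells, was at 0.24 and 0.27 TPM. Pkm makes its M1 and M2 forms by including either exon 9 or the exon after it. NM_001253883, the transcript with the upstream exon, which is M1, had 165 and 152 TPM, 99.4% and 100% of the gene. NM_011099, the M2 transcript, had 1.05 TPM in the alum pool and 4.3e-09 TPM, in effect none, in the KLH pool. Both M2 values were under 3 TPM. M1 was thus nearly the only form in these preparations. The alternative exons are shown because they decide the form. Both are 167 bases long and 61.7% identical (GRCm38, plus strand of chromosome 9, chr9:59675029-59675195 for M1 and chr9:59675568-59675734 for M2), with capitals at the 64 positions where they differ.
Pkm exon 9 of NM_001253883 (M1): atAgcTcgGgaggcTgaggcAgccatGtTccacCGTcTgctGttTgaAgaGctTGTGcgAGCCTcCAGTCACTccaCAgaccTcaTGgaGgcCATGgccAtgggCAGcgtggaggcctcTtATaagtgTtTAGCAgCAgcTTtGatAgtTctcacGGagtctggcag
Pkm alternative exon of NM_011099 (M2): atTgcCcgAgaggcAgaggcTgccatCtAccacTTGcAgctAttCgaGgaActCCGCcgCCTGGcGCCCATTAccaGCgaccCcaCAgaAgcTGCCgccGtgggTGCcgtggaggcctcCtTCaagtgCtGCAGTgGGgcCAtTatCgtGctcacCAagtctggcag
The transcripts of M1 and M2 have 185 and 576 31-base words of their own.

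Lactate dehydrogenase interconverts pyruvate and lactate, and its A subunit, the product of Ldha, is typical of muscle and of glycolytic cells, the B subunit of heart. Ldha was at 286 TPM in the alum pool and 254 TPM in the KLH pool, a log2 ratio of -0.17. Ldhb was at 180 and 173 TPM, so that Ldha made up 61.3% and 59.4% of the TPM of the step, and the testis gene Ldhc was at 0 in both pools. Most of Ldha was assigned to NR_102727, a noncoding transcript that lacks exon 6 and that GENCODE classes under nonsense-mediated decay. It had 231 and 196 TPM, 80.8% and 77.2% of the gene, with a log2 ratio of -0.24. The coding NM_010699 had 46.7 and 51.5 TPM, a ratio of 0.14, and NM_001136069, which begins at another first exon, had 8.15 and 6.41 TPM. The coding transcripts alone summed to 54.9 and 57.9 TPM, a ratio of 0.076, so the direction of Ldha depended on whether the noncoding transcript was counted. On coding transcripts alone the share of Ldha within the step was 23.3% and 25.1%. The missing exon is shown because it separates the coding from the noncoding transcript. It is 118 bases long, which is no multiple of 3 (GRCm38, plus strand, chr7:46851877-46851994).
Ldha exon 6 of NM_010699: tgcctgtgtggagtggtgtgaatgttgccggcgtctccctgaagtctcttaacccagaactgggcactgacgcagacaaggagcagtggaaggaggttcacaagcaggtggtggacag
In NR_102727 exon 5, in lower case, is joined directly to the exon that follows, in capitals, as these 30 bases show.
Ldha junction of NR_102727: atggcgactccagtgTGCCTACGAGGTGAT
The coding transcripts share 330 31-base words that NR_102727 lacks, and NR_102727 has 24 that both of them lack. Only 5 words of NM_010699 are absent from the other Ldha transcripts. The accuracy of the division of Ldha between coding and noncoding RNA was not tested.

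**Figure D3:**
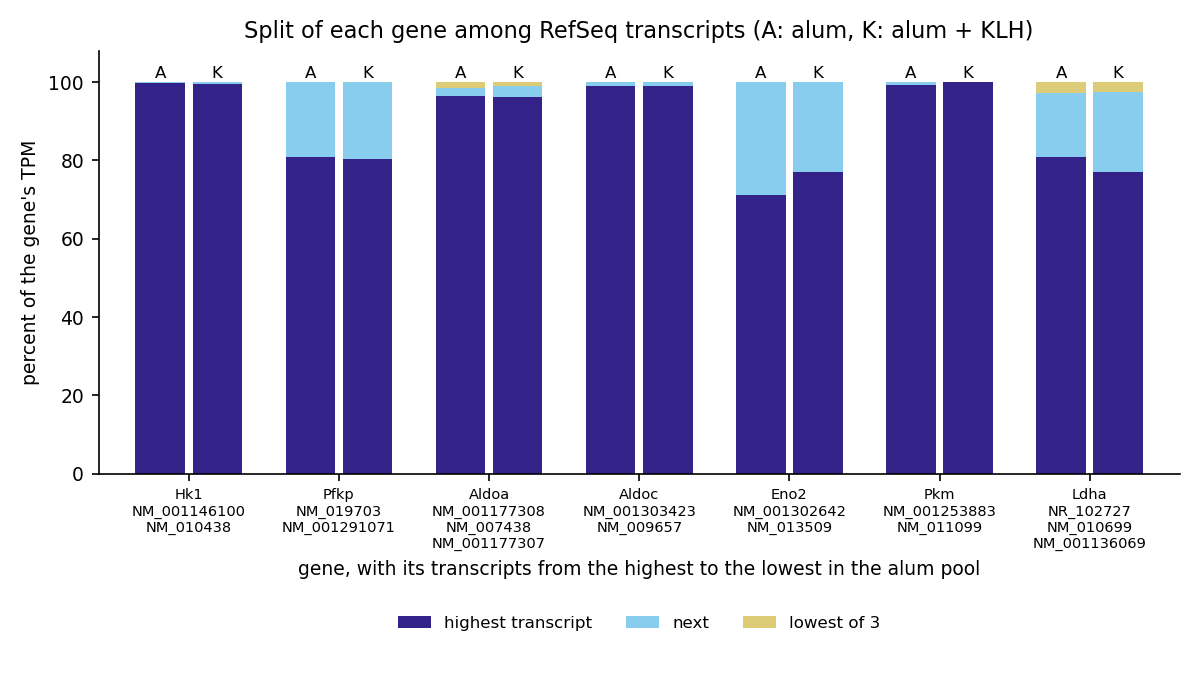
Percent of each gene's TPM (vertical axis) assigned to each of its RefSeq transcripts, for the 7 genes with more than 1 transcript, with a bar for the alum pool (A) and a bar for the KLH pool (K) and transcripts named below in the order of the colours. A single transcript fills nearly the whole bar for Hk1, Aldoa, Aldoc and Pkm, and the widest difference between pools is the 5.90 points of Eno2.

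**Figure D4:**
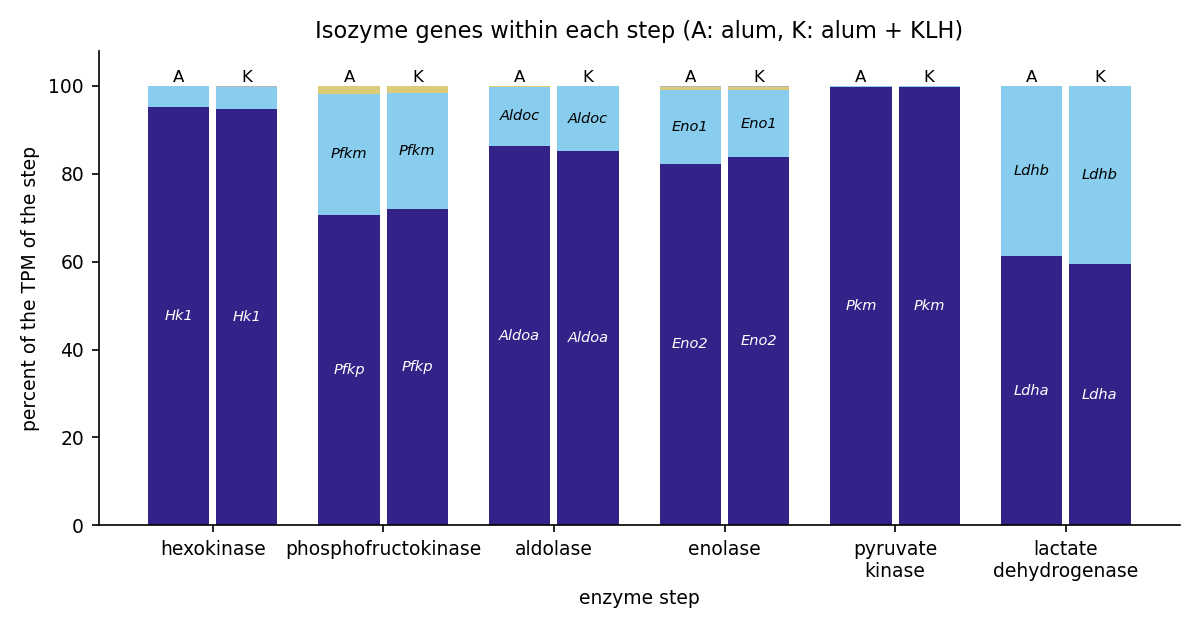
Percent of the TPM of an enzyme step (vertical axis) contributed by each isozyme gene, in the alum pool (A) and the KLH pool (K), with 1 library each and Eno1b not counted. The leading gene is the same in both pools at each of the 6 steps, and Ldha is at 61.3% and 59.4%. On coding transcripts alone Ldha is at 23.3% and 25.1%, below Ldhb, and with Eno1b added to Eno1, Eno2 is at 58.4% and 61.5%.

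The other genes of glycolysis were read from a fixed list of 20 isozymes and remaining steps, of which 9 were above 3 TPM. The ratio of all 9 was below 0, as it was for 56.4% of all genes, with a median of -0.11. Measured from genes of like GC content, 6 of the 9 were below 0 and 3, Hk2, Pfkl and Pfkm, above, with a median of -0.0024. Gapdh, glyceraldehyde-3-phosphate dehydrogenase, was the only one at least 25% apart, at 357 TPM in the alum pool and 270.4 TPM in the KLH pool. Its log2 ratio of -0.40 compared with an SD of 0.19 among genes of similar level, and was -0.28 measured from genes of like GC content. Triosephosphate isomerase, Tpi1, was at 113 and 101 TPM, and phosphoglycerate mutase, Pgam1, which was higher than Pgk1, at 589.8 and 568 TPM. Summed over isozymes, 10 of the 11 steps from hexokinase to lactate dehydrogenase were lower in the KLH pool, and enolase, counted without Eno1b, was higher by 0.031 on the log2 scale. With both Eno1b rows added, enolase was at 468 and 462 TPM, a log2 ratio of -0.018, and 11 of 11 steps were lower. That enolase ratio was close to the median of all genes above 3 TPM, -0.020. Of those genes 56.4% were below 0, and the step sums were not measured from genes of like GC content.

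Genes for transport and control around glycolysis did not share this side. Of 17 genes above 3 TPM among 21 listed, 5 were below 0 and 12 above, with a median log2 ratio of 0.018, while 56.4% of all genes were below 0. Of the 17, 0 were 25% apart, against 5.39% of all genes lower and 2.29% higher by that limit. The highest was Mpc2, a subunit of the mitochondrial pyruvate carrier, at 273 and 322 TPM (0.24), and the lowest Pdk2, a kinase that restrains pyruvate dehydrogenase, at 4.07 and 3.57 TPM (-0.15). Mpc1, the partner of Mpc2, was named after its value was seen and stood at 638 and 738 TPM (0.21). All 17 listed genes of the citric acid cycle were above 3 TPM, 9 of them below 0, with a median of -0.028 and a range from -0.25 for Idh3g to 0.16 for Dld. The median GC content of the transcripts was 53.8% for the 10 glycolytic genes, 53.5% for the remaining steps, 47.7% for transport and control and 50.2% for the citric acid cycle. Measured from genes of like GC content, the median ratio of transport and control was 0.015, with 5 of 17 below 0. On that scale it was -0.014 for the 10 glycolytic genes, -0.0024 for the remaining steps and 0.0072 for the citric acid cycle. The differences between these groups were not tested.

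**Figure D5:**
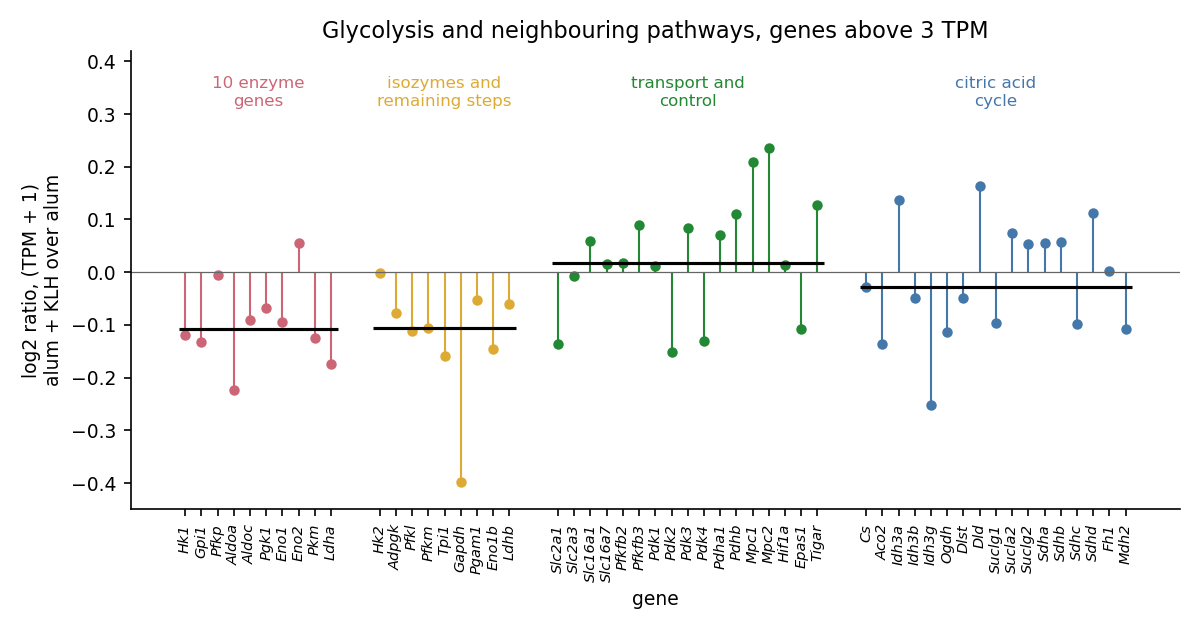
Log2 ratio of alum + KLH over alum (vertical axis, TPM + 1) for each gene above 3 TPM in 4 groups, with a black line at the median of each group. Genes of glycolysis lie below 0 apart from Eno2, Gapdh is the lowest at -0.40, and genes of transport and control and of the citric acid cycle lie on both sides.

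The start regions of the genes were searched for the core letters of the hypoxia response element, the site at which HIF-1 is known to switch on glycolytic genes. RefSeq start regions of GRCm38.p6, each 250 bases before to 50 after a start site, were available for all 10 genes, in 18 regions. ACGTG or GCGTG on either strand was found in 13 of the 18 regions and in 8 of the 10 genes, while 43.8% of all 32851 regions, and 63.8% of the 14253 with at least 55% GC, hold one. Of the 18, 15 had at least 55% GC. The 18 regions are not separate, since overlapping regions of Aldoa, and likewise of Eno1, hold the same matches. A gene with several regions has more chances of a match, and the share of all genes with one was not computed. A palindrome CACGTG counts as 2 matches to ACGTG, once for each strand. Hk1 had 5 matches at the start site of its leading transcript and 0 at the upstream one. The start of the leading Aldoa transcript had 0, as did that of the M1 transcript of Pkm. Pkm is counted through a region further downstream, which held 2 matches. Ldha had the most, 7, at the start of NR_102727 and NM_010699, and its region is shown for that reason (GRCm38.p6, plus strand, chr7:46845554-46845853), with the matches in capitals.
Ldha start region: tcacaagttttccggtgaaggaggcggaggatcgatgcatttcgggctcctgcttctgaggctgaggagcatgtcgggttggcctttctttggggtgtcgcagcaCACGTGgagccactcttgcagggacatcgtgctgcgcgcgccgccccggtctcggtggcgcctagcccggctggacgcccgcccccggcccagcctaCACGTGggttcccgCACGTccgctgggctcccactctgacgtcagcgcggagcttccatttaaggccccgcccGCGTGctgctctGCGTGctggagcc
These matches describe the letters of the regions, and binding was not measured.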

How the data were processed

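DRG neuron RNA of 10 mice per group was pooled by the authors before library construction, and 1 stranded mRNA library per group was sequenced with paired ends. Per the labels and the methods of the study, the authors used bcl2fastq, cutadapt and kallisto with the mouse mm10 reference and its known transcripts; versions are not given in the sources used here. The study states a minimum read depth per sample. What the authors deposited is TPM for each RefSeq transcript, without read counts. The number of reads behind a value is therefore unknown, and no counting interval or floor was computed. How kallisto divided reads among similar transcripts is contained in the TPM values, as is any effect of GC content, for which no correction is stated.

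TPM was summed per gene symbol. Ratios used a pseudocount of 1 TPM, which understates changes of low genes, over genes above 3 TPM in either pool. With 1 library per group there is no test. Transcripts were paired with GENCODE M21 (GRCm38, the assembly of mm10) for exons, GC content and 31-base words, and all 19 transcripts were matched. GC content was available for 11504 of 11648 genes and was taken from the leading transcript. Python 3.11.15, numpy 2.4.6, pandas 2.3.3 and matplotlib 3.10.9 were used, and calculations were tested on simulated data. The members, gene lists and the limit of 25% were chosen with earlier results of these data known. All members were named, the remaining steps where above 3 TPM, and of other lists the extremes; a few listed genes are not reported here. Alternatives were other pseudocounts, thresholds, scalings and choices of transcript, and, chosen after the data were seen, GC content, coding transcripts alone and Eno1b added to Eno1.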

Additional observations from a re-analysis of the deposited data

How the results depend on the processing

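A difference of at least 25% of the lower level was seen in 0 of the 10 genes under each of the 8 alternatives that recompute it, and the median ratio over them stayed below 0, from -0.19 relative to Hprt, itself at 989 and 1049 TPM and a scale on which the median of all genes was -0.10, to -0.014 after subtraction of the ratio of genes of like GC content. The number of genes below 0 changed from 9 to 10 relative to Hprt, to 8 after division by the median ratio of the pools (0.987) or on coding transcripts alone, and to 5 on the GC scale. With GC content taken into account Hk1 turned to 0.031, Eno1 to 0.080, Pkm to 0.025 and Pfkp to 0.014, and the median of the citric acid cycle genes turned to 0.0072, with 6 of 17 below 0. Pfkp was also above 0 after division by the median ratio, at 0.013, Eno2 was at -0.029 relative to Hprt, and Ldha at 0.076 on coding transcripts alone. Of 80 recomputed ratios of single genes, 77 moved by less than the SD of genes of similar level. This count says little, because most of these ratios could hardly move. A new scale shifts all 10 genes nearly alike, and the pseudocount hardly matters at their levels. Coding transcripts alone could change only Ldha, the only member with a noncoding transcript. The 3 that moved further were Hk1 and Eno1 on the GC scale and Ldha on coding transcripts alone. The comparison with all genes depended on the filter, since without it their median ratio was 0. All 10 genes were above 1 TPM and above 10 TPM in both pools. With only the highest transcript of each gene, the share of Pfkp was 76.2% in the alum pool and 77.2% in the KLH pool. On that choice Eno2 was at 77.1% and 80.1%, and Ldha at 68.3% and 58.5%. The share of Ldha thus differed more between the pools than with transcripts summed. On that choice Ldha is the noncoding NR_102727 alone and Ldhb is likewise cut to its highest transcript, so the wider difference is not one of Ldha alone. Adding Eno1b to Eno1 brought Eno2 to 58.4% and 61.5%, and coding transcripts alone brought Ldha to 23.3% and 25.1%. No paired analysis was possible because each group holds 1 library, and for the same reason no library could be left out. The number of reads behind each transcript is not given, so the precision of low transcripts such as Pkm M2 cannot be stated.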

Other observations

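Splicing of Pkm is known to be steered by PTBP1, hnRNPA1 and hnRNPA2, which favour the M2 exon, and by SRSF3. All 5 genes of a fixed list of these factors and the neuronal Ptbp2 were above 3 TPM in both pools. Ptbp1 was the lowest of them at 10.9 TPM in the alum pool and 9.23 TPM in the KLH pool, with the most negative log2 ratio of the list, -0.22. Srsf3 was at 281 and 302 TPM, with the highest ratio, 0.11. The median ratio of the list was 0.069, and 0 of 5 were 25% apart. Ptbp2, named after its value was seen, stood at 239.8 and 251 TPM, above Ptbp1 in both pools.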
